A study of Mus musculus with 12 samples.

Results

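Monocytes and macrophages were followed through 10 of their marker genes in the colon of 3 mouse genotypes: Ccr2, Cd14, Lyz2, Csf1r, Adgre1, Fcgr1, C1qa, C1qb, C1qc and Cx3cr1. They were chosen by name, and their 16 probes were found through the accession that the scanner files give each probe. All 10 genes were among the 23243 genes and unnamed transcripts tested, and the probe used for each was well above background on all 12 arrays and saturated on none. Colon RNA of C57BL/6J males, labelled with a single dye, was hybridised to Agilent oligonucleotide arrays, 2 per group. The groups were ATF6aKO given dextran sulfate sodium (DSS), ATF6aKO untreated (UT), ATF6bKO given DSS, ATF6bKO untreated, and 2 wild-type (WT) groups. DSS damages the lining of the colon and is used to induce colitis; it was given at 3% in the drinking water for 3 days. ATF6a and ATF6b are sensors of unfolded proteins in the endoplasmic reticulum. The labels do not say how the knockout alleles were made, the age of the mice, or whether each array stands for its own animal. The p-values therefore reflect how these arrays vary, and that variation may be technical.

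For WT, titles and treatment field disagree: each of the 4 samples is DSS by one and untreated by the other. WT groups are formed here by title and called titled DSS and titled UT, and no sign of the WT difference is taken as the effect of DSS. In the deposited value table, 8 of the 12 columns held the values of another sample's array: each WT column matched an array from the opposite WT group, and the replicates of each ATF6aKO group were exchanged. The 4 arrays of a genotype were scanned together, apart from the other genotypes, so genotype and scan cannot be told apart. The targeted genes matched the knockout labels. Atf6 had group mean levels of -3.16 and -3.13 in ATF6aKO colon given DSS and untreated, against 0.72 to 1.18 in the other groups. Atf6b had means of -5.88 and -7.06 in ATF6bKO colon given DSS and untreated, against -0.74 to -0.01 elsewhere. The mean level of 10 epithelial markers was 4.65 to 4.66 in ATF6aKO given DSS, against 4.90 to 5.08 untreated, and 4.35 to 4.57 in ATF6bKO given DSS, against 5.01 to 5.04 untreated. In WT it was 4.76 to 5.17 in titled DSS, against 5.38 to 5.52 in titled UT. The changes of single markers ran from -4.40 to 0.38 over both knockouts and from -3.68 to 0.83 in WT by title. Muc2, a defining gene of goblet cells, was not among the genes tested.

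Macrophages of the intestinal wall are renewed largely from blood monocytes. Monocytes leave the bone marrow and enter tissue through the chemokine receptor CCR2, and in the healthy colon they mature step by step into macrophages that take up bacteria and debris with little inflammatory output. In colitis, more monocytes arrive and maturation is cut short, so inflammatory monocyte-derived cells accumulate. CCR2, CD14 and lysozyme are high in monocytes and their recent progeny. CSF1R, F4/80 and CD64 identify the macrophage lineage, and C1q and CX3CR1 are high in mature resident macrophages. None of these genes is confined to 1 stage.

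Levels are the log2 of the processed signal minus the log2 of the array's 75th percentile, so 0 is that percentile and 1 unit is a doubling. Levels of different genes come from different probes and are not compared with each other. Changes are differences of these levels. The test was limma's, and a gene passed where its Benjamini-Hochberg adjusted p over the 23243 genes was under 0.05. In whole colon, fewer cells of a type and less RNA per cell cannot be told apart.

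Over both knockouts, 9 of the 10 genes rose with DSS and none fell. Among all genes tested, 29.1% passed the threshold in this comparison and 13.3% passed as higher. Cd14 was the exception, with a log2 change of 0.40 and an adjusted p of 0.0888. The median change of the 10 genes was 1.38, beside -0.01 over all genes. The monocyte-side and mature-side genes were not separated by this: the medians were 1.23 for Ccr2, Cd14 and Lyz2, 1.46 for Csf1r, Adgre1 and Fcgr1, and 1.42 for C1qa, C1qb, C1qc and Cx3cr1. All DSS arrays stood above all untreated arrays within each knockout for 9 of the 10 genes, as they did for 17% of all genes, and Cx3cr1 was the gene that did not. Neutrophil markers moved with these genes: 10 of 11 measured markers were higher with DSS, and their mean level per array was -3.56 to -3.21 in ATF6aKO given DSS and -1.63 to -1.56 in ATF6bKO given DSS, against -5.10 to -5.02 and -5.53 to -5.04 in the untreated arrays of the same knockouts. Ly6g, Elane, Ngp and Trem3 were not among the markers tested. Mast cell markers were higher for 6 of 9 and lower for 1, with a mean level of -0.06 to -0.02 in ATF6aKO given DSS, against -1.02 to -0.62 untreated, and -1.21 to -0.61 in ATF6bKO given DSS, against -1.68 to -1.62 untreated. Eosinophil markers were higher for 2 of 4, with a mean level of -2.99 to -2.43 in ATF6aKO given DSS, against -3.43 to -3.15 untreated, and -2.60 to -2.56 in ATF6bKO given DSS, against -4.01 to -3.42 untreated. The mean level of epithelial markers, given above, was lower with DSS in both knockouts without overlap, with 2 of 10 markers passing as higher and 1 as lower. That mean does not stand for most of the markers: 7 of 10 changes were above 0, the median was 0.10 and the lowest was -4.40. The part of these cells in the changes was not tested.

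**Figure D1:**
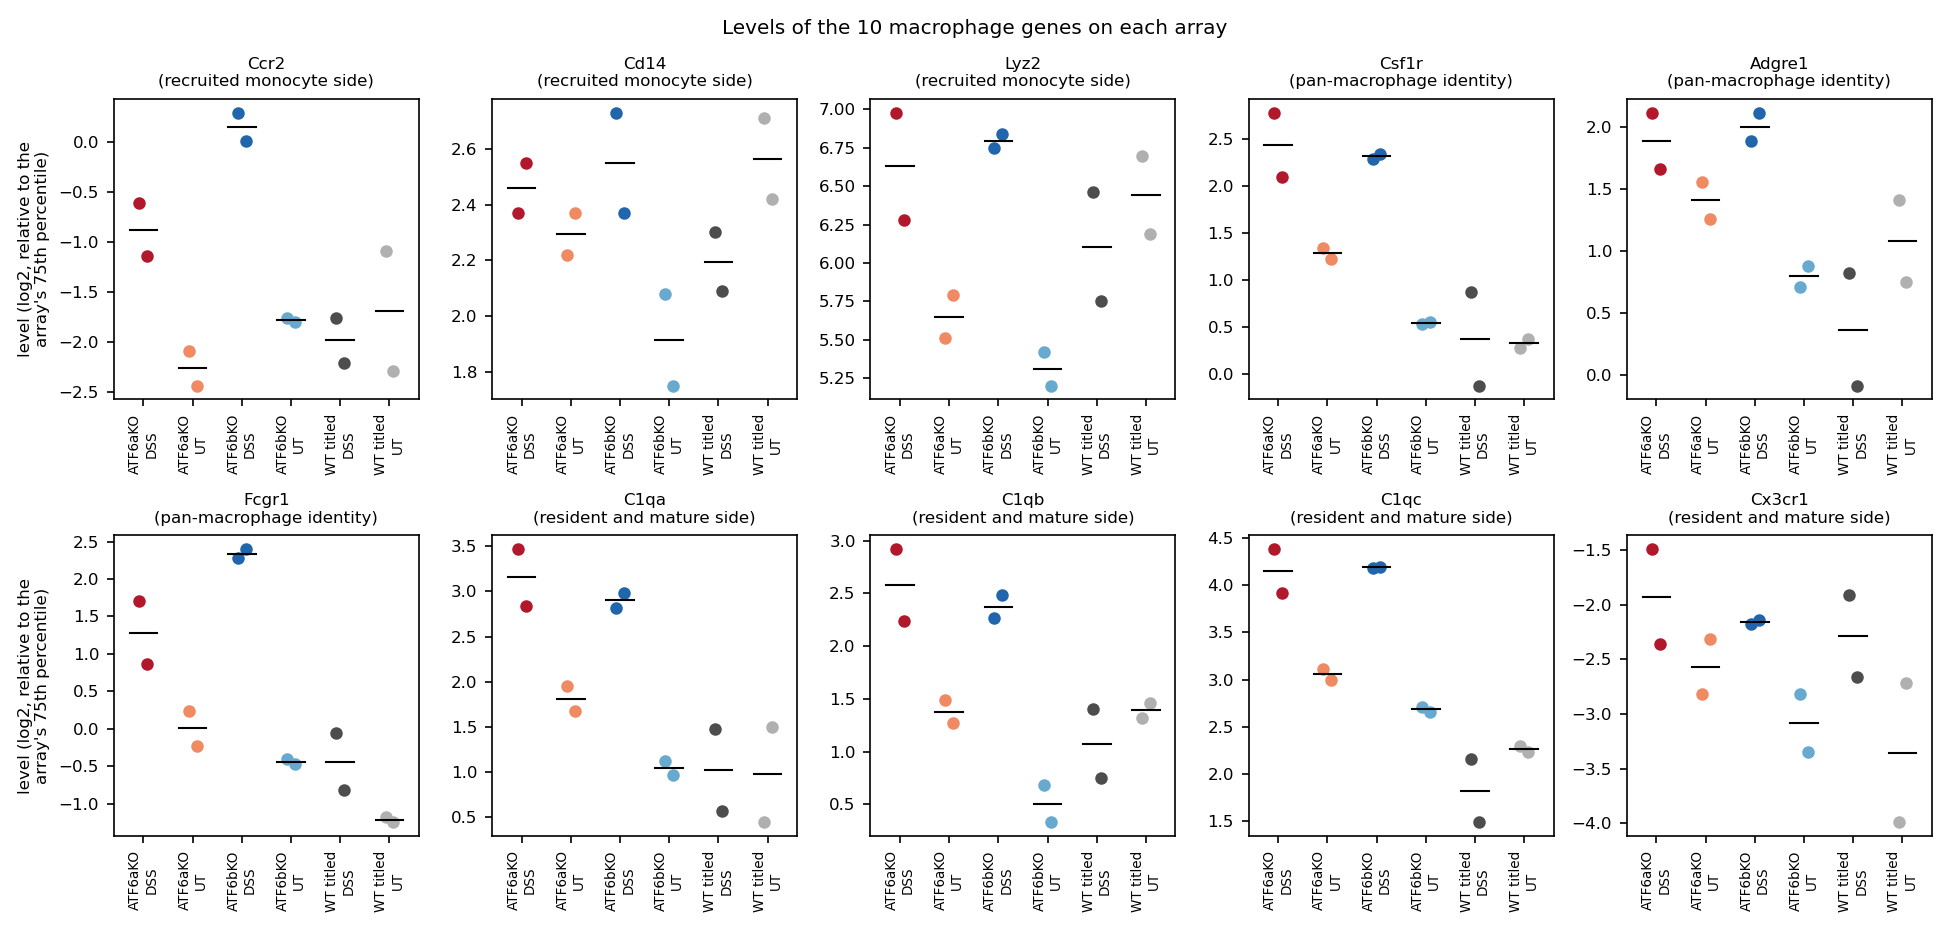
Level of each of the 10 genes on each of the 12 arrays (log2, relative to the array's 75th percentile), 1 panel per gene with its own vertical scale. Points are arrays and lines are group means of 2 arrays. The DSS arrays of both knockouts stand above the untreated arrays of the same knockout for every gene except Cx3cr1 in ATF6aKO, and for Cd14 the 2 ATF6aKO groups meet at 2.37.

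Of the monocyte-side genes, Ccr2 encodes the receptor for CCL2 that draws monocytes into inflamed tissue. Its level was -0.61 and -1.14 in ATF6aKO colon given DSS, against -2.09 and -2.44 in untreated ATF6aKO colon. In ATF6bKO colon it was 0.30 and 0.01 with DSS, against -1.76 and -1.80 untreated. The 4 DSS arrays lay above the 4 untreated ones without overlap, and the change over both knockouts was 1.66 (SE 0.181, adjusted p = 0.00203), a 3.16-fold rise. In WT colon the levels were -1.76 and -2.21 in titled DSS, against -1.09 and -2.29 in titled UT, and the groups overlapped. ATF6bKO given DSS was highest of the 6 groups and stood apart from ATF6aKO given DSS, and each lower neighbour in the order of the means overlapped the next. A second, dimmer Ccr2 probe was well above background on the 4 knockout DSS arrays and on no other array.

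Lyz2 encodes the lysozyme of myeloid cells, an enzyme that breaks bacterial cell walls. Its level was 6.98 and 6.28 in ATF6aKO given DSS, against 5.51 and 5.79 in untreated ATF6aKO. It was 6.75 and 6.84 in ATF6bKO given DSS, against 5.42 and 5.20 in untreated ATF6bKO. The change was 1.23 (SE 0.191, adjusted p = 0.00505), a 2.35-fold rise, and the second Lyz2 probe gave 1.13. WT levels were 6.46 and 5.75 in titled DSS, against 6.70 and 6.19 in titled UT, and these groups overlapped. In the order of the means, only untreated ATF6bKO, the lowest, stood apart from its neighbour, untreated ATF6aKO. Lyz1, a near-identical copy expressed by Paneth cells of the small intestine, is the next gene on chromosome 10, so signal from Lyz1 cannot be told apart from that of Lyz2 here.

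Cd14 encodes the co-receptor that hands bacterial lipopolysaccharide to TLR4. It varied least of the 10 genes, from 1.75 to 2.73 over all arrays. Its level was 2.37 and 2.55 in ATF6aKO given DSS, against 2.22 and 2.37 in untreated ATF6aKO, and 2.73 and 2.37 in ATF6bKO given DSS, against 2.08 and 1.75 in untreated ATF6bKO. Its highest group mean, 2.56, was in titled UT of WT, where the arrays read 2.71 and 2.42, against 2.30 and 2.09 in titled DSS. Untreated ATF6bKO was lowest and stood apart from its neighbour in the order, titled DSS.

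Csf1r encodes the receptor for CSF1 and IL-34 on which monocyte-derived cells depend for survival. Its level was 2.78 and 2.10 in ATF6aKO given DSS, against 1.34 and 1.23 untreated, and 2.29 and 2.34 in ATF6bKO given DSS, against 0.54 and 0.56 untreated. The change was 1.46 (SE 0.189, adjusted p = 0.00299), a 2.75-fold rise. WT levels were 0.88 and -0.12 in titled DSS, against 0.28 and 0.38 in titled UT. The knockout DSS groups overlapped at the top of the order, untreated ATF6aKO and then untreated ATF6bKO followed apart from their upper neighbours, and untreated ATF6bKO and the WT groups overlapped in turn. The 3 Csf1r probes all gave higher knockout values with DSS, by 0.97 to 1.46, but they disagreed in WT, where the probe used gave 0.05 and the other probes gave 0.95 and 0.96.

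Fcgr1, which encodes CD64, the high-affinity receptor for IgG, had the largest change of the 10. Its level was 1.70 and 0.86 in ATF6aKO given DSS, against 0.24 and -0.23 untreated, and 2.28 and 2.40 in ATF6bKO given DSS, against -0.41 and -0.47 untreated. The change over both knockouts was 2.03 (SE 0.344, adjusted p = 0.00689), a 4.08-fold rise. WT levels were -0.06 and -0.82 in titled DSS, against -1.18 and -1.25 in titled UT. In the order of the group means each group stood apart from the next, except that untreated ATF6bKO and titled DSS overlapped.

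Adgre1 encodes F4/80, a surface protein of mouse macrophages. Its level was 2.12 and 1.66 in ATF6aKO given DSS, against 1.56 and 1.26 untreated, and 1.89 and 2.12 in ATF6bKO given DSS, against 0.71 and 0.88 untreated. The change was 0.85 (SE 0.194, adjusted p = 0.019), a 1.8-fold rise. WT levels were 0.82 and -0.09 in titled DSS, against 1.41 and 0.75 in titled UT, and the groups overlapped. The knockout DSS groups overlapped at the top and stood apart from untreated ATF6aKO, and each lower neighbour overlapped the next.

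On the mature side, C1qa, C1qb and C1qc encode the chains of C1q, which binds antibody complexes and dying cells and starts the classical complement pathway. The 3 genes follow one another on chromosome 4. C1qa had levels of 3.47 and 2.84 in ATF6aKO given DSS, against 1.95 and 1.67 untreated, and 2.82 and 2.98 in ATF6bKO given DSS, against 1.12 and 0.96 untreated. C1qb had 2.92 and 2.24 in ATF6aKO given DSS, against 1.49 and 1.27 untreated, and 2.27 and 2.48 in ATF6bKO given DSS, against 0.68 and 0.33 untreated. C1qc had 4.38 and 3.91 in ATF6aKO given DSS, against 3.11 and 3.00 untreated, and 4.18 and 4.19 in ATF6bKO given DSS, against 2.71 and 2.66 untreated. All DSS arrays of the knockouts lay above all their untreated arrays for each of the 3 chains. Over both knockouts C1qa rose by 1.60 (SE 0.182, adjusted p = 0.00226), C1qb by 1.54 (SE 0.212, adjusted p = 0.00357) and C1qc by 1.29 (SE 0.139, adjusted p = 0.00196). In WT the chains overlapped between the titled groups or nearly met: C1qa was 1.47 and 0.56 in titled DSS, against 0.44 and 1.50 in titled UT, C1qb was 1.40 and 0.75, against 1.32 and 1.46, and C1qc was 2.16 and 1.49, against 2.30 and 2.23. For each chain the knockout DSS groups overlapped each other at the top of the order and stood apart from the group that followed.

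Cx3cr1 encodes the fractalkine receptor that marks resident macrophages of the gut. Its level was -1.49 and -2.36 in ATF6aKO given DSS, against -2.82 and -2.31 untreated, and -2.18 and -2.14 in ATF6bKO given DSS, against -2.82 and -3.35 untreated. The ATF6aKO groups overlapped, as did each pair of neighbours in the order of the 6 means. Its change over both knockouts was 0.78 (SE 0.233, adjusted p = 0.0442), close to the threshold. A second, dimmer Cx3cr1 probe was well above background on 3 arrays and on no knockout array. The call was lost with quantile normalization (adjusted p = 0.0646), with no filter on dim probes (0.0668), with the mean of its 2 probes (0.127) and in the fit of all 12 arrays (0.123). It was also lost without ATF6bKO UT replicate 1 (0.067) or 2 (0.0888), ATF6bKO DSS replicate 1 (0.0988) or 2 (0.106), ATF6aKO UT replicate 1 (0.113) or ATF6aKO DSS replicate 1 (0.117). Adgre1 was lost without ATF6bKO UT replicate 1 (adjusted p = 0.0507), ATF6bKO DSS replicate 1 (0.0517) or 2 (0.0506), or ATF6aKO DSS replicate 1 (0.0599). The other 7 calls were kept in every omission and alternative run, and the count was 7 to 9.

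Promoters of 4 of the genes that rose together are printed below, from 250 bases before to 50 after the RefSeq start (assembly GRCm38.p6), so that their sequences can be set beside the shared change. Capitals mark GAGGAA, the core of sites bound by PU.1, a factor that macrophages require, or TTCCTC where the match is on the opposite strand.
Fcgr1 (chr3:96293920-96294219, minus strand): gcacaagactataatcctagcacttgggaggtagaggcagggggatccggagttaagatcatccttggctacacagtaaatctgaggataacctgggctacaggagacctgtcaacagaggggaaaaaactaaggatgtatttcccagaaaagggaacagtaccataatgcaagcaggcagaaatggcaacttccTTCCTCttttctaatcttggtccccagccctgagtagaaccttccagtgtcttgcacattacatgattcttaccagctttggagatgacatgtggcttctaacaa
C1qb (chr4:136886151-136886450, minus strand): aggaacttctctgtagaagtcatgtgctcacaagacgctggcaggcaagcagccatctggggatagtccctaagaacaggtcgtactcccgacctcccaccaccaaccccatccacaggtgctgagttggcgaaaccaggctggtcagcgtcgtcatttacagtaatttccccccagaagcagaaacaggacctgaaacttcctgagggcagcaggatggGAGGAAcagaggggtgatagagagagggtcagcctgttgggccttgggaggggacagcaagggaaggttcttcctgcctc
C1qc (chr4:136892865-136893164, minus strand): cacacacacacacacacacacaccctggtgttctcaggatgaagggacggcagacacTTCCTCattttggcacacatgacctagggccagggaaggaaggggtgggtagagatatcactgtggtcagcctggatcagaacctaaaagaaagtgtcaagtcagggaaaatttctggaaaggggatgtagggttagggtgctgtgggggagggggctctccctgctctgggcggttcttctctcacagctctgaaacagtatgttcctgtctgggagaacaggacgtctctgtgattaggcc
Ccr2 (chr9:124101933-124102232, plus strand): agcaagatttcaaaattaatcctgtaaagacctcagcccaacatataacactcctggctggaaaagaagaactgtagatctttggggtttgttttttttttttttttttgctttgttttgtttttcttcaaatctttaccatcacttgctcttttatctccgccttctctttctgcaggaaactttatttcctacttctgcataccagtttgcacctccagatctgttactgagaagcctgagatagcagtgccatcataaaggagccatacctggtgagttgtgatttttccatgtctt

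Of the 6 promoters that could be read, 3 held GAGGAA on either strand, those of Fcgr1, C1qb and C1qc, with the first base at -55, -30 and -193 from the start. Among 32851 mouse promoters of the same length, 28.3% held it. The longer GAGGAAGT was in C1qc alone of the 6 and in 3.2% of all promoters. TATAAA was in none of the 6 and in 13.6% of all promoters, TGACTCA in none and in 5.2%, TGCTGAC in none and in 4.67%, and TTTCACTTC in none and in 0.505%. Searches covered both strands, and GAGGAAGT includes GAGGAA. A match is a description of these letters and not a site.

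Within ATF6bKO alone, 8 of the 10 genes rose with DSS, where 12.9% of all genes passed the threshold and 5.7% passed as higher, and the median change was 1.63. Fcgr1 rose by 2.78 (SE 0.325, adjusted p = 0.00195), Ccr2 by 1.93 (adjusted p = 0.012), C1qb by 1.87 (0.00501) and C1qa by 1.86 (0.0183). Csf1r rose by 1.77 (0.00929), C1qc by 1.50 (0.00597), Lyz2 by 1.49 (0.0168) and Adgre1 by 1.21 (0.0473). Cd14 had 0.64 (0.075) and Cx3cr1 0.92 (0.235). Fcgr1, C1qb and C1qc kept their call in each of the 12 omissions of an array, and the count of calls fell to 3 without ATF6bKO UT replicate 1 or ATF6bKO DSS replicate 2 and to 4 without ATF6bKO UT replicate 2 or ATF6bKO DSS replicate 1. Adgre1 was lost without any 1 of the ATF6aKO arrays as well (adjusted p = 0.0619 to 0.0682).

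In ATF6aKO, C1qb rose by 1.20 (SE 0.287, adjusted p = 0.0439) and C1qc by 1.09 (SE 0.24, adjusted p = 0.034). These were 2 of the 10 genes, where 6.33% of all genes passed the threshold and 2.88% passed as higher. The other 8 had values above 0, from 0.16 for Cd14 to 1.39 for Ccr2 (adjusted p = 0.0532 to 0.673), and the unadjusted p was under 0.05 for 7 of the 10, as for 23.9% of all genes. Both calls were lost without any 1 of the 4 ATF6aKO arrays and without either ATF6bKO DSS array, C1qb also without either ATF6bKO UT array, and both in the fit of only the 4 arrays compared. The count was 5 without either titled UT array, 6 without the 4 WT arrays and 0 to 5 over the 12 omissions.

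The test of the difference between the 2 knockout responses passed for none of the 10 genes, and limma passed 0 genes in all. At an unadjusted p under 0.05 there were 1854 genes (7.98%), with 1 of the 10 among them: the response of Fcgr1 was 1.50 smaller in ATF6aKO than in ATF6bKO on the log2 scale, with a 95% interval of the difference from -2.54 to -0.45 (limma adjusted p = 0.448). The differences of all 10 genes were below 0, with a median of -0.53, beside 0.10 over all genes. Other 95% intervals included 0, for example -1.74 to 0.66 for Ccr2 and -1.80 to 0.77 for C1qa.

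In WT, titled DSS minus titled UT passed for none of the 10 genes by limma, although 31.8% of all genes passed. At an unadjusted p under 0.05 there were 2 of the 10, as for 44% of all genes: Fcgr1 at 0.78 (limma adjusted p = 0.0982) and Cx3cr1 at 1.07 (limma adjusted p = 0.11). The values ran from -0.71 for Adgre1 to 1.07, with a median of -0.30, and the intervals were wide, from -1.14 to 0.56 for Ccr2 and from -0.86 to 0.95 for C1qa. Without titled UT replicate 2, Ccr2 passed at -0.89 (adjusted p = 0.0431) and Cx3cr1 at 1.71 (adjusted p = 0.021). By the treatment field each value has the opposite sign.

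**Figure D2:**
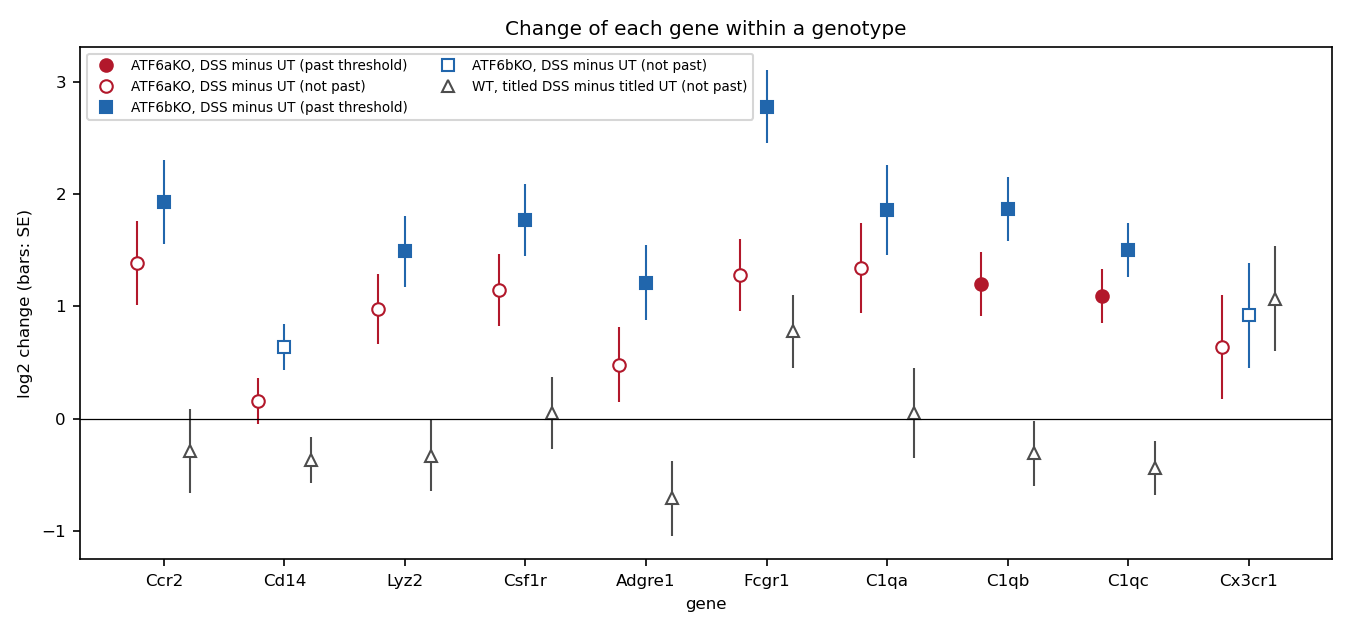
Log2 change of each gene within a genotype, as DSS minus UT in ATF6aKO (circles) and ATF6bKO (squares) and as titled DSS minus titled UT in WT (triangles), with the standard error as bars. Filled symbols passed the threshold: 2 of 10 in ATF6aKO, 8 of 10 in ATF6bKO and none in WT.

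Set against the WT difference by title, the response of ATF6bKO was larger for 8 of the 10 genes, all but C1qa and Cx3cr1, where 14.6% of all genes passed and 6.29% passed as higher. By the treatment field it was larger for 6, Ccr2, Csf1r, Fcgr1, C1qa, C1qb and C1qc, where 29.3% of all genes passed and 12.7% passed as higher. Ccr2, Csf1r, Fcgr1, C1qb and C1qc passed under both readings. The Csf1r difference by title was 0.70 to 1.72 over 8 processing settings, and its call was lost in 4 (highest limma adjusted p = 0.279). Its probes disagreed in WT by title, at 0.05 for the probe used and 0.95 and 0.96 for the others. The response of ATF6aKO exceeded the WT difference for C1qc by title (7.65% of all genes passed, 3.57% as higher) and for Fcgr1 by the treatment field (27.9% passed, 14% as higher), and for none under both. These calls turned on single arrays: over the 12 omissions the ATF6bKO counts were 1 to 8 by title, with 1 without titled DSS replicate 2 or ATF6bKO DSS replicate 2, and 1 to 5 by the treatment field, with 1 without ATF6bKO DSS replicate 2. The ATF6aKO counts were 0 to 4 and 0 to 3.

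Averaged over both treatments, Csf1r, Adgre1, Fcgr1, C1qa and C1qc were higher than in WT in each knockout. The estimate is the same under either reading of the WT labels. In ATF6aKO 6 of the 10 genes were higher, where 50.4% of all genes passed and 21.6% passed as higher: C1qc by 1.56 (SE 0.17, adjusted p = 0.000276), Csf1r by 1.51, C1qa by 1.49, Fcgr1 by 1.47, Adgre1 by 0.92 and C1qb by 0.75. In ATF6bKO 6 were higher, where 50.6% passed and 24.5% passed as higher: Fcgr1 by 1.78 (SE 0.23, adjusted p = 0.000504), C1qc by 1.39, Csf1r by 1.08, Ccr2 by 1.02, C1qa by 0.98 and Adgre1 by 0.68. C1qb had 0.21 in ATF6bKO (adjusted p = 0.417) without passing. Cd14 and Lyz2 had values near 0 in both, from -0.22 to 0.00, and the deposited value table gave Cd14 as higher (0.66 and 0.50, adjusted p = 0.00604 and 0.0226), on a scale that moved the median of all genes by 0.64 and 0.62. With treatment by title as an additive term, the ATF6aKO count was 4, with Adgre1 (adjusted p = 0.0582) and C1qb (0.116) lost. The ATF6bKO count was 2, with Fcgr1 and C1qc kept. Both counts rest on the titles of the WT samples. These averages include the DSS arrays. In untreated ATF6bKO, Csf1r, C1qa, Adgre1 and Fcgr1 had group means of 0.55, 1.04, 0.80 and -0.44. Untreated ATF6aKO had 1.29, 1.81, 1.41 and 0.00. In WT they were 0.38, 1.02, 0.37 and -0.44 in titled DSS, and 0.33, 0.97, 1.08 and -1.22 in titled UT. C1qc was 2.68 in untreated ATF6bKO, against 1.82 and 2.27, and Ccr2 was -1.78, against -1.98 and -1.69.

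Each genotype was scanned apart, and genotype and scan cannot be told apart. Mast cell markers moved with genotype: the mean level of 9 markers per array was -1.02 to -0.02 in ATF6aKO and -1.68 to -0.61 in ATF6bKO, against -4.19 to -3.50 in WT, and their part was not tested. Several calls were lost with 1 array left out. C1qb in ATF6aKO was lost without titled DSS replicate 2 (0.59, adjusted p = 0.0523) or ATF6aKO DSS replicate 1 (0.58, adjusted p = 0.0528). C1qa in ATF6bKO was lost in 4 omissions (adjusted p = 0.0505 to 0.0689) and Adgre1 in 8 (0.0551 to 0.133). Between the 2 knockouts, ATF6aKO minus ATF6bKO passed for none of the 10 genes, where 5.48% of all genes passed. The unadjusted p was under 0.05 for 2 of the 10, as for 24.6% of all genes: Ccr2 at -0.76 and C1qb at 0.54 (limma adjusted p = 0.127 and 0.146). Ccr2 passed without titled UT replicate 1 or 2 (adjusted p = 0.0305).

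Monocyte-side and mature-side genes can be set against each other on each array as the mean deviation of each side from its own mean over the 12 arrays. The monocyte side stood at 0.55 and 0.20 in ATF6aKO given DSS and 0.90 and 0.72 in ATF6bKO given DSS, against -0.48 and -0.45 in untreated ATF6aKO and -0.45 and -0.64 in untreated ATF6bKO. The mature side stood at 1.36 and 0.70 in ATF6aKO given DSS and 0.81 and 0.92 in ATF6bKO given DSS, against -0.03 and -0.05 in untreated ATF6aKO and -0.54 and -0.81 in untreated ATF6bKO. The monocyte side minus the mature side was -0.81 and -0.50 in ATF6aKO given DSS and -0.45 and -0.40 untreated, while in ATF6bKO it was 0.08 and -0.20 with DSS and 0.09 and 0.16 untreated. In WT it was 0.15 and 0.44 in titled DSS, against 1.35 and 0.08 in titled UT. In WT the monocyte side was -0.02 and -0.48 in titled DSS, against 0.41 and -0.26 in titled UT, and the mature side was -0.18 and -0.92 in titled DSS, against -0.94 and -0.34 in titled UT. Only the 4 knockout DSS arrays stood above 0 on both sides, and titled UT replicate 1 was above 0 on the monocyte side alone. The balance of the sides was lower in both ATF6aKO groups than in the other groups, with no test made of it.

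**Figure D3:**
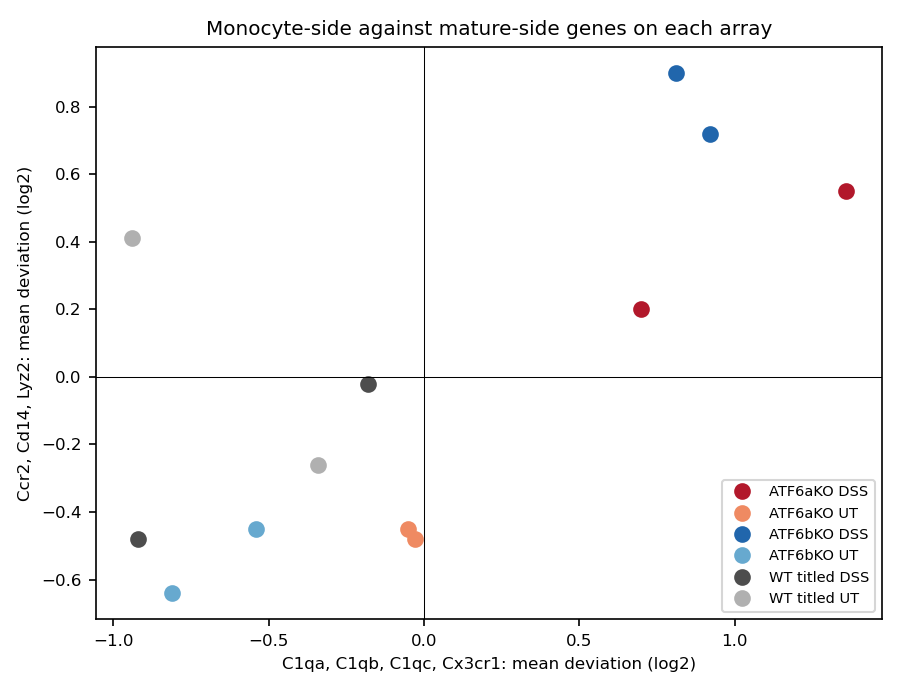
Mean deviation of Ccr2, Cd14 and Lyz2 (vertical) against that of C1qa, C1qb, C1qc and Cx3cr1 (horizontal), 1 point per array, in log2 units from each gene's mean over the 12 arrays. The 4 knockout DSS arrays lie in the upper right, at 0.20 to 0.90 on the monocyte side and 0.70 to 1.36 on the mature side.

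Beyond the 10 genes, recruited monocyte genes rose in the knockouts with DSS. Of 16 measured genes of that list, 14 rose and none fell, with a median change of 1.70. In this comparison 29.1% of all genes passed and 13.3% passed as higher, and the same shares apply to the knockout lists that follow. Chil3, a chitinase-like protein of inflammatory monocytes, rose by 3.96 (adjusted p = 0.00232), F10, coagulation factor X, by 3.38 (0.00188) and Il1b, the interleukin-1 beta gene, by 2.86 (0.003). Clec4e, a receptor for fungal and mycobacterial lipids that neutrophils also express, was well above background on 4 DSS arrays and no untreated array and was at least 17-fold higher (adjusted p = 0.00137). Fn1 had 0.39 and Cd44 0.40 without passing.

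Of 19 measured resident and mature macrophage genes, 16 rose and 2 fell, with a median of 0.90. Timd4, a receptor for dying cells on long-lived macrophages, rose by 1.76 (adjusted p = 0.0031; above background on 3 of the 4 untreated arrays), Itgax, an integrin also found on dendritic cells, by 1.44 (0.00894), Ms4a7 by 1.41 (0.00398) and Trem2, a lipid-sensing receptor, by 1.38 (0.00232). Mertk, a receptor for dying cells, fell by 0.73 (0.00538). Dendritic cell markers rose for 5 of 8, T and NK cell markers for 7 of 9 and fibroblast markers for 6 of 7 with DSS, and their part in the changes of these lists was not tested.

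**Figure D4:**
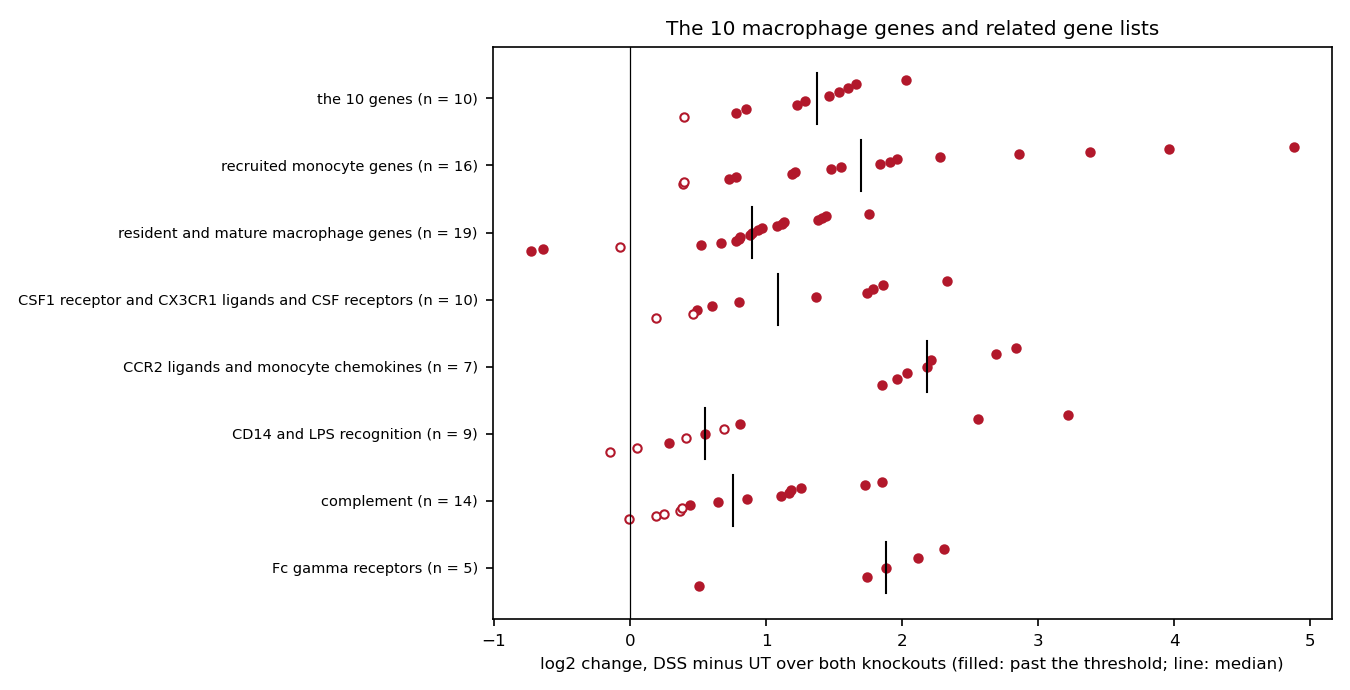
Log2 change with DSS over both knockouts for the 10 genes and for 7 lists of related genes, 1 point per gene, filled where the gene passed the threshold, with the list's median as a line. The recruited monocyte list has a median of 1.70 and the resident list 0.90, and 2 genes of the resident list lie past the threshold below 0.

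The ligands and partners of these receptors rose as well. All 7 chemokines of the list of CCR2 ligands and monocyte chemokines rose, with a median of 2.18. Ccl2, the main CCR2 ligand, rose by 2.21 (adjusted p = 0.00116), Ccl7 by 1.96, Ccl8 by 2.04 and Ccl12 by 1.85. Ccl5 rose by 2.69, Ccl3 by 2.84 and Ccl4 by 2.18. Ccl3 was well above background on 1 of the 4 untreated arrays, so its change rests on signal near background there. Its call was lost without ATF6bKO UT replicate 1 (adjusted p = 0.0534), ATF6bKO DSS replicate 1 (0.0527) or 2 (0.0526). Of 10 genes of CSF1R and CX3CR1 ligands and CSF receptors, 8 rose: Csf1 by 0.60 (0.0119), Il34 by 0.80 (0.0444), Cx3cl1, the ligand of CX3CR1, by 0.49 (0.029), Csf2rb by 1.86, Csf3r, the G-CSF receptor of neutrophils, by 2.33 and Tyrobp, an adaptor of myeloid receptors, by 1.79. Csf2 was above background on 2 of the 4 DSS arrays and on no untreated array, at least 1.8-fold higher (0.0201), a call lost without ATF6bKO UT replicate 1 (0.0512) or ATF6bKO DSS replicate 1 (0.0529). Csf3r was above background on 2 of the 4 untreated arrays. The count fell to 5 without ATF6bKO UT replicate 1 or ATF6bKO DSS replicate 1. Il34 was lost in 6 omissions (0.0715 to 0.112) and Cx3cl1 in 7 (0.0513 to 0.0811).

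Of 5 genes listed for Fc gamma receptors and their signalling, all rose, with a median of 1.88. Among them, Fcgr4 rose by 2.31 (adjusted p = 0.0158) and Fcgr3 by 2.12 (0.00176). The inhibitory receptor gene Fcgr2b rose by 1.88 (0.00203) and Fcer1g, the signalling chain, by 1.74 (0.00301). Of 14 complement genes outside the C1q chains, 9 rose and none fell: C3ar1, the receptor for C3a, by 1.85 (0.00179), C2 by 1.73, C4b by 1.26 and C3 by 1.18. C1ra and C1s1, the proteases that sit with C1q, rose by 0.86 (0.0226) and 0.44 (0.0317). C1ra was lost in 4 omissions (0.0516 to 0.0651) and C1s1 in 6 (0.0634 to 0.0864). Of 9 genes listed for lipopolysaccharide recognition and response, 5 rose, and the list median was 0.55. Among the 5 were Lbp by 2.56 (0.000243), Tlr4 by 0.81 (0.00278), Myd88 by 0.55 (0.0101) and the cytokine gene Tnf by 3.22 (0.00176). Ly96, the partner of TLR4, had 0.41 (0.203) without passing.

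In WT, by title, 5 of 16 recruited monocyte genes were higher, and of the 19 resident genes 2 were higher and 1 lower, in a comparison where 31.8% of all genes passed. In titled DSS, Lbp was higher by 2.32 (limma adjusted p = 0.000807), Csf3r by 1.68 (0.0173), Il1b by 1.67 (0.0156), Cx3cl1 by 1.65 (0.00195) and Tnf by 1.21 (0.0123). Clec4e, not well above background on the untreated knockout arrays, had 3.80 (0.00125). Tyrobp was lower, at -1.22 (0.03). The Fc gamma receptor list had none past the threshold, with a median of -0.05. Of the 7 listed CCR2 ligands and monocyte chemokines 2 were higher (median 0.78). Of the 10 genes of the CSF list 4 were higher and 1 lower (median 0.68). Of the 9 genes listed for lipopolysaccharide recognition and response 3 were higher (median 0.13). Of the 14 complement genes 1 was higher and 2 lower (median -0.04).

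By level over the 12 arrays, the genes most like each of the 10 were found by Pearson's r, members left out, as a description of arrays that share groups and scans. For Csf1r they were Fcer1g (0.983), Nxpe5 (0.98) and Serping1 (0.977), and for C1qc they were Nxpe5 (0.99), Gpsm3 (0.988) and Ifnar2 (0.978). For C1qa they were Itgb2 (0.983), Igfbp7 (0.976) and Tnfaip8l2 (0.968), and for C1qb Il1r2 (0.968), Npl (0.964) and Irf5 (0.963). For Fcgr1 they were Arl4c (0.982), Pirb (0.978) and Apobr (0.977), for Adgre1 Pf4 (0.96), Lst1 (0.958) and Igf1 (0.954), and for Cx3cr1 Rftn1 (0.951), Vamp5 (0.928) and Crispld2 (0.927). For Ccr2 they were Mmp11 (0.967), Mmp12 (0.966) and Ifi204 (0.963), for Lyz2 Pde1b (0.977), Msr1 (0.97) and Clec4n (0.964), and for Cd14 Lmo2 (0.884), Kmo (0.879) and Btla (0.874). Among the 10 genes themselves, Ccr2 correlated at 0.837 with Fcgr1 and 0.303 with Cx3cr1, and Cd14 at 0.773 with Lyz2 and 0.135 with Cx3cr1.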

How the data were processed

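Colon RNA was measured on 12 single-dye arrays, 2 per group, grouped by genotype and treatment, with WT grouped by title. Per the file headers and the submitters' processing notes, the authors scanned the arrays and quantified spots with Agilent Feature Extraction 10.7.1.1. The deposited scanner files hold a processed signal, an intensity from which that program had subtracted background, with no scaling between arrays. The deposited value table holds log2 values of these arrays, centred on each probe's mean; how they were scaled between arrays is not stated in those sources. Each of its columns was matched to the array whose values it equals, and it served only as an alternative. The direction of its values was that of the scanner files.

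Control spots were left out, leaving 43379 spots per array. Of these, 54 to 108 per array were left out as outliers. Over the arrays the rest covered 41174 probes. Levels were log2 processed signal minus the log2 75th percentile of the array. A probe was kept if well above background on both arrays of at least 1 group (30434 probes), and a gene was its brightest probe by mean level (23243 genes). Unversioned accessions named 25193 probes (61.2%) through a RefSeq table of GRCm38.p6, credited also for the promoter sequences. The number of arrays limits the precision. Differences were tested in limma 3.58.1 (R 4.3.3; lmFit, then eBayes), with Benjamini-Hochberg adjustment over all genes. A model of 6 group means on the 12 arrays served every comparison except DSS minus UT over both knockouts, for which only the 8 ATF6aKO and ATF6bKO arrays entered and genotype was a covariate. The fit was tested on simulated data. "Well above background" is the program's own mark, and an at-least fold was set against the lowest signal so marked on each array.

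The members, lists and alternatives were chosen with earlier results of these data known. The named genes were the 10 members, up to 4 genes each way per list with the largest change past the threshold, the direct partners of members, and the 3 named genes most like each member. The result of 1 list gene is not reported here. Arrays with the same replicate number showed no strong shared pattern. The correlation of same-numbered deviations over 15 pairs of groups ran from -0.22 to 0.15 and exceeded 0.1 in 2. Such correlations cannot show whether the arrays were paired by design. Alternatives were normexp background correction (offset 50, on the spot and background medians), quantile normalization and the mean of a gene's probes. No filter or a strict filter on dim probes was also tried. Further alternatives were other sets of arrays in the fit, a replicate block and treatment by title as an additive term. The value table, the treatment field for WT and leaving out each array completed them. The differences from WT and their reading by the treatment field were added after seeing the data.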

Additional observations from a re-analysis of the deposited data

Results flagged for a closer look

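The DSS response of a knockout differed from the WT difference, by limma's test of the difference of the 2 differences, for the genes that follow. By title, with ATF6bKO first and WT after, the differences of the 2 responses in log2 units were 2.22 for Ccr2, 1.01 for Cd14, 1.82 for Lyz2, 1.72 for Csf1r, 1.92 for Adgre1, 2.0 for Fcgr1, 2.18 for C1qb and 1.94 for C1qc (adjusted p = 0.0138 to 0.0497). For ATF6aKO against WT by title it was 1.53 for C1qc (adjusted p = 0.0357). By the treatment field of the WT labels, the ATF6bKO differences were 1.64 for Ccr2, 1.82 for Csf1r, 3.56 for Fcgr1, 1.91 for C1qa, 1.56 for C1qb and 1.05 for C1qc (adjusted p = 0.00157 to 0.0465), and the ATF6aKO difference was 2.06 for Fcgr1 (adjusted p = 0.0137). For Csf1r in ATF6bKO by title, the difference was 0.70 to 1.72 over 8 processing settings, with the call lost in 4. In ATF6bKO by title the others lost were Cd14 in 5, Lyz2 in 3, Ccr2 and Adgre1 in 2 each and Fcgr1 in 1. The call of C1qc in ATF6aKO by title was lost in 3. By the treatment field in ATF6bKO, Ccr2 and C1qc were lost in 3 each and C1qa in 2. Calls also turned on single arrays, as given above. Of all genes, 14.6% passed for ATF6bKO by title and 29.3% by the treatment field, and 7.65% and 27.9% for ATF6aKO. The 2 readings share the knockout arrays and use the same WT arrays with opposite sign. Genotype, and with it each scan, cannot be told apart in these differences.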

How the results depend on the processing

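With the arrays few, calls moved more than values. Over both knockouts the count of the 10 genes was 7 to 9 over the 8 omissions and 8 or 9 under the other alternatives. In ATF6aKO (2 genes called) it was 0 with no filter, with the value table and with only the arrays compared, 5 with normexp, 5 with the strict filter, 6 without the WT arrays, 4 with the replicate block, and 0 to 5 over omissions. In ATF6bKO (8) it was 3 to 9 over omissions. In WT by title (0) it was 0 to 2 over omissions. For ATF6aKO minus ATF6bKO (0) it was 3 with normexp, 1 with only the arrays compared, without the WT arrays or with the additive term, and 0 to 1 over omissions; for ATF6bKO minus WT (6) it was 2 with the additive term. For the ATF6aKO response minus the WT difference by title (1) it was 2 with normexp, the strict filter or the replicate block, 0 with no filter, only the arrays compared or the value table, and 0 to 4 over omissions; by the treatment field (1) it was 3 with normexp, 2 with the mean of the probes and 0 to 3 over omissions. For ATF6bKO by title (8) it was 2 with no filter, 3 with only the arrays compared and 1 to 8 over omissions; by the treatment field (6) it was 3 with no filter, 3 with only the arrays compared and 1 to 5 over omissions. The replicate block changed no other count by more than 1.5 times and dropped Cx3cr1 over both knockouts (adjusted p = 0.0587). The CSF list count of 8 was 5 with the strict filter. The cause of these moves was not tested.

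By the treatment field, the WT values turn by construction: Ccr2 0.29, Cd14 0.37, Lyz2 0.33, Csf1r -0.05, Adgre1 0.71, Fcgr1 -0.78, C1qa -0.05, C1qb 0.31, C1qc 0.44 and Cx3cr1 -1.07. Other values that changed sign were uncalled in the main analysis. Against WT in ATF6aKO, Cd14 was 0.66 with the value table, 0.03 with normexp, 0.01 with quantile normalization and -0.08 to 0.07 over omissions; Lyz2 was 0.53 with the value table, 0.15 with the mean of the probes and -0.31 to 0.04 over omissions; Cx3cr1 was -0.44 with the mean of the probes; and Ccr2 was -0.03 to 0.57 over omissions. Against WT in ATF6bKO, Cd14 was 0.50 and Lyz2 0.42 with the value table, and Cx3cr1 was -0.29 with the mean of the probes and -0.12 to 0.52 over omissions. For ATF6aKO minus ATF6bKO, Cx3cr1 was -0.15 with the mean of the probes and -0.01 with normexp, and Lyz2 was -0.09 to 0.26 over omissions. In WT by title, Lyz2 was 0.24 with quantile normalization and -0.69 to 0.02 over omissions; over omissions C1qa was -0.49 to 0.58, C1qb -0.64 to 0.02, Ccr2 -0.89 to 0.31 and Csf1r -0.45 to 0.55. For the difference of the knockout responses, Cx3cr1 was -0.72 to 0.16 over omissions. For the responses minus WT by title, Cx3cr1 was -1.07 to 0.21 in ATF6aKO, and -0.79 to 0.49 over omissions, 0.06 with the mean of the probes and 0.03 with normexp in ATF6bKO. By the treatment field in ATF6aKO, Adgre1 was 0.07 with the mean of the probes and -0.69 to 0.22 over omissions, and Cd14 was 0.00 with quantile normalization. The cause was not tested.

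Counts over all genes, and with them the shares of all genes passing, also moved. Over omissions they were 3857 to 6639 over both knockouts (6761 in the main analysis), 183 to 3464 in ATF6aKO, 1089 to 5280 in ATF6bKO, 2982 to 10479 in WT by title, 0 to 83 for the difference of the knockout responses and 199 to 3637 for ATF6aKO minus ATF6bKO. They were 0 to 7625 for the ATF6aKO response minus WT by title and 740 to 8971 for the ATF6bKO one, and 2955 to 10155 and 3959 to 10028 by the treatment field. ATF6aKO (1472 in the main analysis) gave 693 with no filter, 563 with only the arrays compared and 2913 without the WT arrays, and ATF6bKO (3000) gave 1797 with normexp, 1796 with only the arrays compared and 4624 without the WT arrays. WT by title (7380) gave 636 with only the arrays compared. ATF6aKO minus ATF6bKO (1274) gave 10056 with normexp, 579 with no filter, 2793 with only the arrays compared and 2135 with the additive term; ATF6bKO minus WT (11751) gave 6812 with the additive term. By title, the ATF6aKO response minus WT (1779) gave 2675 with normexp, 265 with no filter, 2849 with the strict filter and 158 with only the arrays compared, and the ATF6bKO response minus WT (3403) gave 1486 with no filter and 891 with only the arrays compared. By the treatment field the ATF6bKO one (6811) gave 4198 with only the arrays compared. The difference of the knockout responses (0) gave 5 with quantile normalization and 4 with only the arrays compared. Over both knockouts 45.6% of calls were higher, against 58.9% with normexp (4903 higher, 3425 lower), and against WT the share was 42.8% in ATF6aKO and 48.5% in ATF6bKO, against 86.5% and 89.5% with the value table. For each of the 10 genes the probe used was well above background on each array. The mean of the probes also took in dimmer probes. That of Cx3cr1 was well above background on 3 arrays and on no knockout array.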
